A study of Mus musculus with 6 samples.

Results

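The genes described here are those of the ATP-binding cassette (ABC) family in cultured mouse kidney tubule cells with and without Setd2. Membership rests on gene symbols and on no measured value. The members are the protein-coding genes of GENCODE release M21 whose symbol reads Abc, a letter from a to g, then a digit. This gave 50 genes of the 48526 in the count tables. RNA sequencing compared 2 genotypes of primary cultures of renal tubular epithelium. Mice of the genotype Setd2(F/F)Ksp-Cre+ gave the cultures called KO, and littermates with the floxed alleles alone, Setd2(F/F), gave those called WT. Each group had 3 libraries. The floxed Setd2 alleles were thus common to both groups, and Cre was carried by KO alone, so an effect of Cre and one of the deletion cannot be told apart. Ksp is the promoter of the kidney cadherin gene Cdh16, so Cre acts in tubule epithelium and other cortical cells keep Setd2. All mice were 4 to 5 weeks old, and both groups had the same medium, which held 100 nM hydrocortisone and 20 ng/ml EGF. The labels leave unsaid whether the 3 libraries of a group stem from separate animals, and p-values then measure only the spread between these libraries.

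ABC proteins bind and hydrolyse ATP through paired nucleotide-binding domains. Most use that energy to move lipids, bile salts, drugs, peptides or conjugated metabolites across a membrane. Subfamily A moves mainly lipids, B holds the P-glycoproteins together with mitochondrial and lysosomal members, C holds the multidrug resistance proteins and the sulfonylurea receptors, D is mostly peroxisomal and G carries sterols and drugs. Subfamilies E and F have no membrane domain and act on ribosomes and translation. In the kidney, apical members of proximal tubule cells such as P-glycoprotein, Abcc2, Abcc4 and Abcg2 take part in the secretion of drugs and organic anions into urine.

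Library totals ran from 86078636 to 106974842 counts, of which the 50 ABC genes held 216498 to 253273. Levels below are in CPM, a gene's reads relative to its library total, which was corrected for composition with TMM factors. Setd2 does not check the labels here, since gene-level counts add all its exons: it was at 152.03 to 184.55 CPM in WT and 153.66 to 163.38 CPM in KO. Xist, which silences an X chromosome in females, reached 507 and 606 CPM in KO replicates 2 and 3 and below 1 CPM in the other 4 libraries, so Xist and genotype partly coincide. Calls lost when these 2 libraries are modelled or left out are marked below for ABC members and for regulator, sterol, partner and carrier genes. For other neighbouring genes, such as Rundc3b, and for the remaining cell type markers, such fits are not given.

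Of the 50 ABC genes, 37 passed the filter on low counts and were tested. By edgeR's quasi-likelihood test, 11 were higher and 2 lower in KO with a p adjusted by Benjamini-Hochberg below 0.05, and 24 did not pass. Over all 17571 tested genes, 21.0% passed that threshold, 12.0% as higher and 9.08% as lower. The median log2 fold change was 0.30 over the tested ABC genes and -0.01 over all tested genes. The groups did not overlap in 19 ABC genes, with KO on top in 16 and WT on top in 3. Over all tested genes the shares were 41.9%, 20.6% and 21.3%. ABC genes with a mean below 1 CPM numbered 10, with a median log2 fold change of 1.14, against 0.12 for all tested genes of that range. Genes near the low-count filter, such as Abca17 and Abcb5, can pass it through the group where they are higher. This median, and the family and subfamily medians that include such genes, are therefore no test of direction. Above 100 CPM the 7 ABC genes had a median of 0.10.

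By subfamily, the calls fell in A, B, C and G. Subfamily B had 4 higher and 1 lower of 8 tested genes, with a median log2 fold change of 0.86. Subfamily C had 3 higher and 1 lower of 8, with a median of 0.49. In G 2 of 3 tested genes rose (median 0.81), and in A 2 of 11 rose (median 0.38). The share called was 62.5% in B, 50% in C and 66.7% in G, against 21.0% over all tested genes. In A it was 18.2%, below that share. The calls of Abca1, Abca7, Abcb10, Abcc4 and Abcg1 were lost when the Xist-positive libraries were modelled. The single E gene and the 3 F genes had log2 fold changes between -0.08 and 0.10. Of these 4 genes 0 were called by edgeR, DESeq2 or limma-voom, and 0 had an unadjusted edgeR p below 0.05. The subfamilies were not tested against each other.

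**Figure D1:**
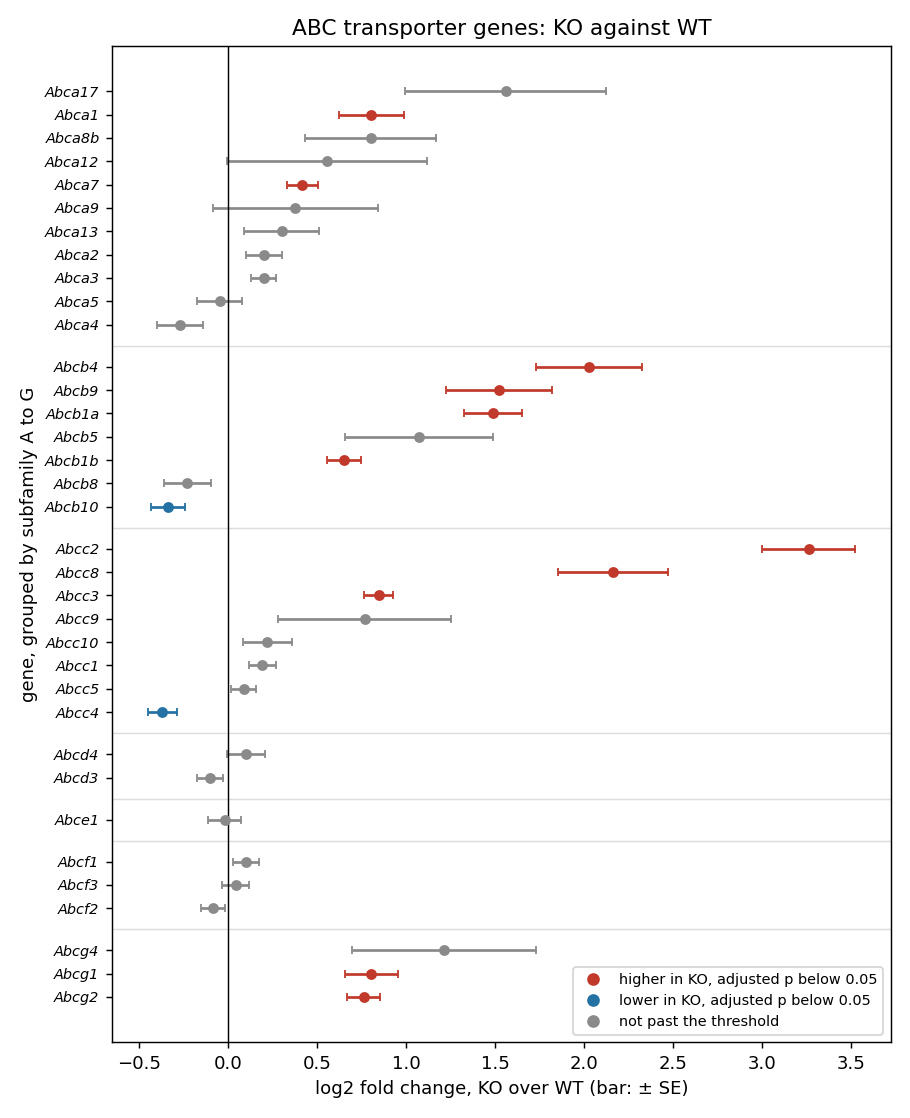
Log2 fold change of KO over WT (x axis) for tested ABC genes (y axis), grouped by subfamily A to G; points are edgeR estimates and bars are ± SE. Abcc2 lies farthest to the right at 3.26 and Abcc4 farthest to the left at -0.37, while genes of subfamilies D, E and F lie near 0.

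**Figure D2:**
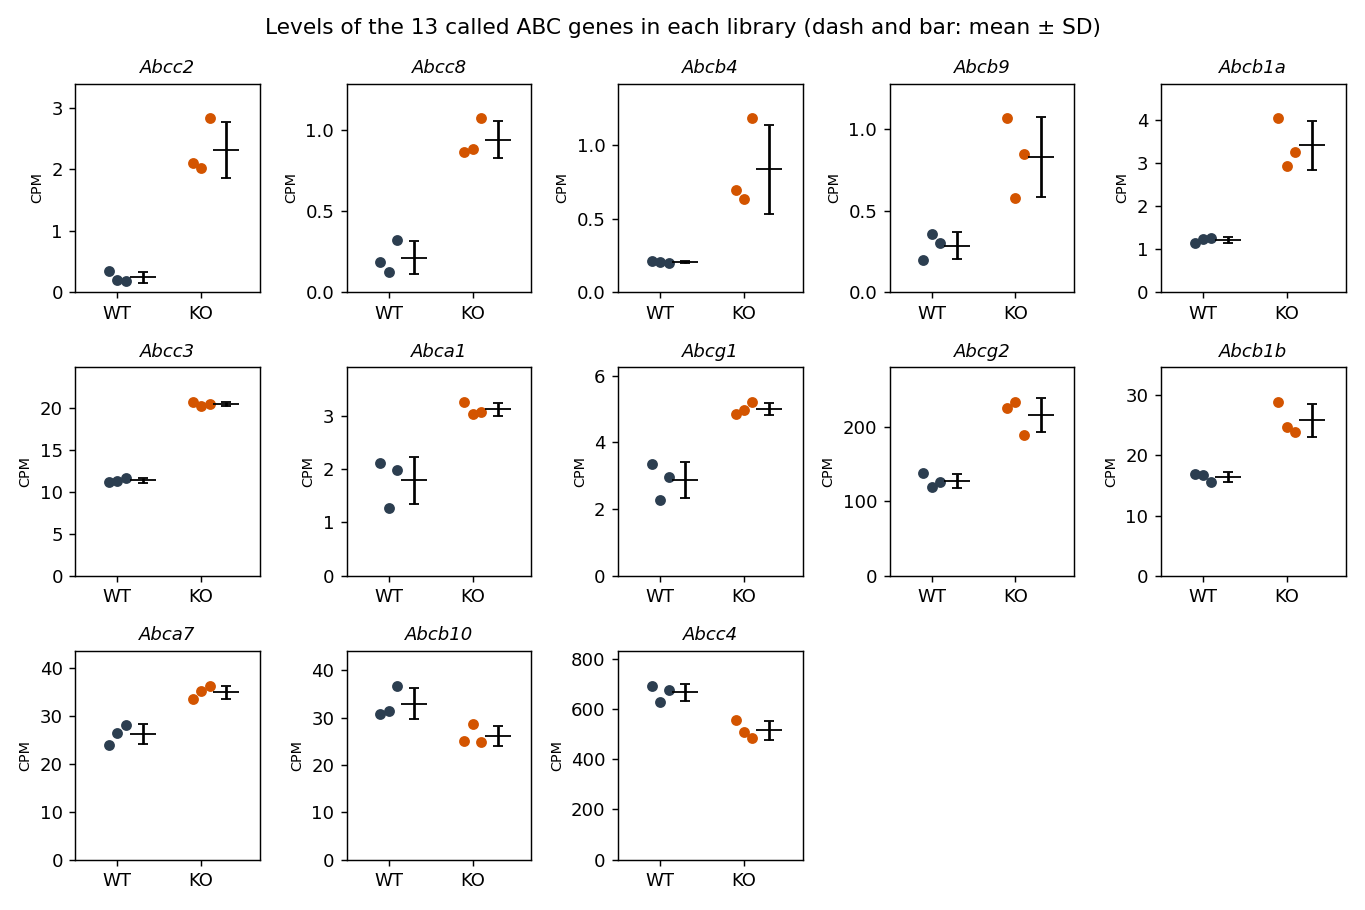
TMM-scaled CPM (y axis, from 0, own scale in each panel) of the 13 ABC genes past the threshold in each of the 3 WT and 3 KO libraries; the dash and bar give mean ± SD. No panel has a WT library within the range of the KO libraries.

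The regions before the gene starts of 4 members are shown because these genes carry the main results. Abcc2 rose most, Abcb1b and Abcb4 are tandem neighbours that rose together, and Abcc4 is the most abundant member and fell. The sequences are from RefSeq (GRCm38.p6), from 250 bases before to 50 after each gene start, 5′ to 3′ on the gene's strand. Capitals mark matches to 5 motifs, which were searched on both strands: the GC box GGGCGG, the CCAAT box CCAAT, the TATA box TATAAA, the E-box CACGTG and the antioxidant response core TGACNNNGC.
Abcc2, chr19:43782058-43782357, plus strand: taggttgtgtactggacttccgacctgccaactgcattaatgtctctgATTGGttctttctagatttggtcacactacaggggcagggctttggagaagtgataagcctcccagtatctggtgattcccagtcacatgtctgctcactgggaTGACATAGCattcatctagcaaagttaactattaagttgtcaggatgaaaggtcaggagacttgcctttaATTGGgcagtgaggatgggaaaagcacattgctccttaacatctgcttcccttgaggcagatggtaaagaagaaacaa
Abcb1b, chr5:8797897-8798196, plus strand: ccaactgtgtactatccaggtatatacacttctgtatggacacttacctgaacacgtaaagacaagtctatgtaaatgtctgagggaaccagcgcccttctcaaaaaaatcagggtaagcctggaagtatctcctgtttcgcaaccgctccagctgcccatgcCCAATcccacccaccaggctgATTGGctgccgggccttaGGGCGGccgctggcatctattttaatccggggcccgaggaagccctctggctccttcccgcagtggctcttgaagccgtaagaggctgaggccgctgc
Abcb4, chr5:8893471-8893770, plus strand: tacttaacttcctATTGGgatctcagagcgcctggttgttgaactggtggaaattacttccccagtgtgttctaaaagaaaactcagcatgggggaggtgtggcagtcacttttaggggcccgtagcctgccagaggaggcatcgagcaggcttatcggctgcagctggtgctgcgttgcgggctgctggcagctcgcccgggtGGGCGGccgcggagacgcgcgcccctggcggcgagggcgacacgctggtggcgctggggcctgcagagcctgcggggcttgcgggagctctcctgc
Abcc4, chr14:118706170-118706469, minus strand: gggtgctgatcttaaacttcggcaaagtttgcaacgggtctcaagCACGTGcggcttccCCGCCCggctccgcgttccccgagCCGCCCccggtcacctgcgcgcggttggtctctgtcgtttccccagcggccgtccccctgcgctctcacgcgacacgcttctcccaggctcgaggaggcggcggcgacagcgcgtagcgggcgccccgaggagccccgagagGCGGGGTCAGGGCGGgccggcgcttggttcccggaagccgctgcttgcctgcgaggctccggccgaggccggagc
The Abcc2 window held 2 CCAAT boxes and 1 antioxidant core. In Abcb1b 2 CCAAT boxes and 1 GC box were found, and in Abcb4 1 of each. In Abcc4 the antioxidant core directly adjoined the last of 3 GC boxes, so that both run together in the capitals, and an E-box lay farther upstream. RefSeq windows were at hand for 38 of the 50 members and for 10 of the 13 called ones, which had 13 windows between them. Of those 13 windows 8 held a GC box and 5 a CCAAT box, where 35.7% and 37.4% of 32851 mouse windows of the same length did. An antioxidant core stood in 4 of the 13, those of Abcb1a, Abcc2 and both of Abcc4, and in 12.4% of all windows. The RefSeq window of Abcb1a, from 8566841 to 8567140 on chromosome 5, lies far upstream of the GENCODE start of the gene at 8660077 and does not contain it. A match describes letters only, and whether any motif acts on these genes was not tested.

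Levels between genes are compared as CPM per kilobase of annotated exon. Abcc4, an efflux pump for cyclic nucleotides, prostaglandins and organic anions, was the highest in WT at 104 ± 5.13 CPM per kilobase (SD, n = 3), followed by Abcf2 at 76.4 ± 1.71, Abce1 at 66.7 ± 7.79 and Abcf1 at 44.2 ± 2.76. The WT ranges of Abcf2 and Abce1 overlapped, and those of Abcc4 and Abcf2 did not. Lower down stood Abcc1 at 16.9 ± 0.794, Abcg2 at 15.6 ± 1.18 and Abcd3 at 14.6 ± 0.745. The WT range of Abcg2 overlapped those of both others. The highest of subfamily A was Abca3, a phospholipid transporter of lamellar bodies, at 11.0 ± 0.325. In KO the order at the top was Abcc4 (80.8 ± 5.92), Abcf2 (72.3 ± 2.38) and Abce1 (65.9 ± 3.28). Per kilobase of the longest coding transcript instead, Abce1 stood above Abcc4 in KO, at 104.4 against 90.29 CPM per kilobase. Summed over the 50 genes, the level was 410.24 to 424.63 CPM per exon kilobase in WT and 389.6 to 420.37 in KO, ranges that overlapped. Within that sum Abcc4 held 25.1 ± 0.987% in WT and 19.8 ± 0.829% in KO, and Abcg2 held 3.76 ± 0.214% and 6.49 ± 0.486%.

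**Figure D3:**
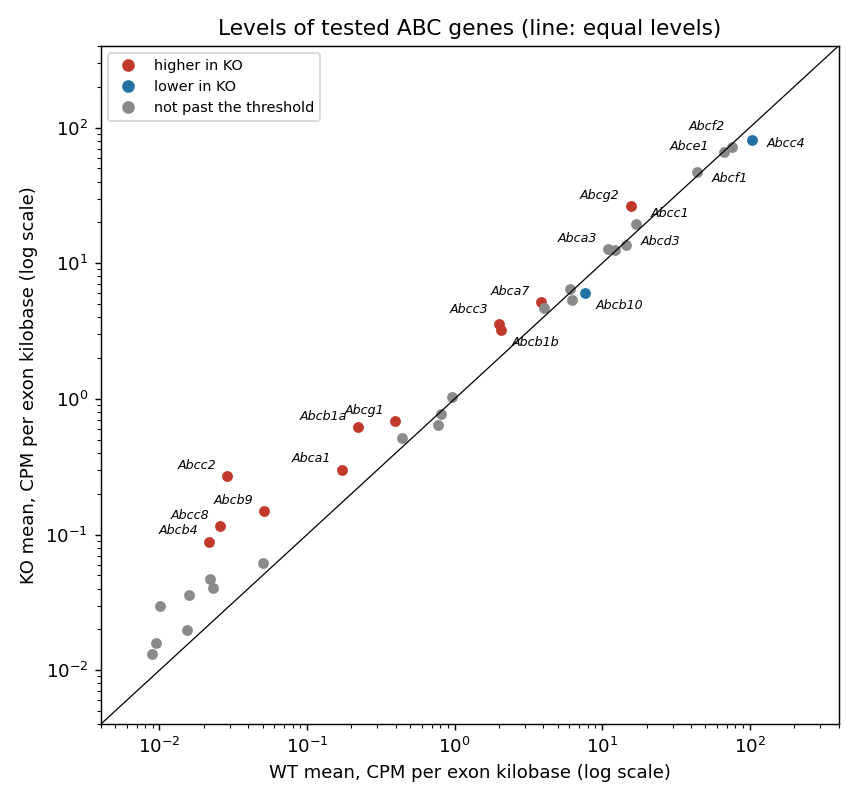
Mean level of tested ABC genes in WT (x axis) and KO (y axis), both in CPM per exon kilobase on log scales; the line marks equal levels and colours give the edgeR call. Abcc4 and Abcf2 are at the upper right near the line, and Abcc2 is the point farthest above it, at 0.0286 in WT and 0.271 in KO.

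Members that pump drugs and organic anions out of the cell held 6 of the 13 calls. Of 11 such genes 9 were tested, of which 5 rose, 1 fell and 3 did not pass. This group and the role groups below were drawn up with the values known. Of all tested genes, 12.0% were higher and 9.08% lower. Abcc2, the apical exporter of glucuronide and glutathione conjugates (ENSMUSG00000025194, chromosome 19, 43782192 to 43840740), stood at 0.347, 0.198 and 0.186 CPM in WT replicates 1 to 3 and at 2.10, 2.02 and 2.83 CPM in KO replicates 1 to 3. The groups were far apart, with KO replicate 3 the highest. Its log2 fold change was 3.26 ± 0.26 (SE), a 9.58-fold rise with edgeR adjusted p = 2.56e-05. The WT level rests on 30, 21 and 18 reads, against 185, 192 and 278 in KO.

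Abcc3, the basolateral exporter of conjugated bile salts and glucuronides (chromosome 11, 94343295 to 94392997), was at 11.2, 11.3 and 11.7 CPM in WT and 20.7, 20.2 and 20.5 CPM in KO. Its libraries barely differed within each group. The log2 fold change was 0.85 ± 0.08, with edgeR adjusted p = 9.41e-05. Abcg2, the breast cancer resistance protein, which exports urate and many drugs (chromosome 6, 58584523 to 58695676), was the most abundant member that rose. It was at 137.7, 118.8 and 125.2 CPM in WT and at 225.3, 232.9 and 189.5 CPM in KO, a log2 fold change of 0.76 ± 0.09 with edgeR adjusted p = 0.000347.

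Abcc4 (ENSMUSG00000032849, chromosome 14, 118482692 to 118706219) moved the other way. It was at 691.75, 629.25 and 677.45 CPM in WT and at 557.54, 507.02 and 483.52 CPM in KO, so the lowest WT library lay above the highest KO library. It fell by 0.37 ± 0.08 on the log2 scale (edgeR adjusted p = 0.00982), and the call was lost when the model held a term for Xist-positive libraries (the Xist term below), where the log2 fold change was -0.26 with adjusted p = 0.216. In absolute terms the mean fell from 666 to 516 CPM, while Abcg2 rose from 127 to 216 CPM. Abcc1, a broad glutathione-conjugate exporter, was at 254, 244 and 268 CPM in WT and 313, 291 and 273 CPM in KO. Its groups did not overlap, but it did not pass the test (log2 fold change 0.19 ± 0.08, edgeR adjusted p = 0.094). Abcc5, an exporter of cyclic nucleotides, and Abcc10 had log2 fold changes of 0.09 ± 0.07 and 0.22 ± 0.14, with adjusted p-values of 0.388 and 0.271.

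The genes Abcb1a and Abcb1b encode the 2 mouse P-glycoproteins, and Abcb4 encodes the phosphatidylcholine floppase of bile. They lie side by side on the plus strand of chromosome 5, at 8660077 to 8748575, 8798147 to 8866315 and 8893717 to 8959231. All 3 rose. Abcb1a was at 1.15, 1.23 and 1.26 CPM in WT and 4.05, 2.94 and 3.26 CPM in KO, with KO replicate 1 the highest. Its log2 fold change was 1.49 ± 0.16 (edgeR adjusted p = 0.00021). Abcb1b, the more abundant of the pair, was at 17.0, 16.7 and 15.5 CPM in WT and 28.8, 24.7 and 23.8 CPM in KO, again with KO replicate 1 on top. The log2 fold change was 0.65 ± 0.10 (edgeR adjusted p = 0.00107). Abcb4 was at 0.208, 0.207 and 0.197 CPM in WT and 0.692, 0.630 and 1.18 CPM in KO, where KO replicate 3 stood above the other libraries. It rose 4.08-fold (log2 fold change 2.03 ± 0.30, edgeR adjusted p = 0.00112), from 18 to 22 reads per WT library to 60 to 116 per KO library.

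The balance within the P-glycoprotein pair differed between these WT and KO libraries, as the 2 fold changes above imply. On the log2 scale the ratio of Abcb1a to Abcb1b was -3.89, -3.76 and -3.62 in WT and -2.83, -3.07 and -2.87 in KO, without overlap. The means differed by 0.83. An exact 2-sided permutation test gave p = 0.1, the smallest value that 3 against 3 libraries allow, so it cannot fall below 0.05. Abcb1a made up 6.91% of the summed CPM of the pair in WT and 11.7% in KO. The longest open reading frames of the 2 genes were 88% identical over aligned bases, and those of Abcb1a and Abcb4 75.6%. Of the 50-base stretches of the Abcb1a transcript, 15.5% also occurred in Abcb1b, and 18% of those of Abcb1b in Abcb1a. No source used here says how reads in such stretches were assigned, so the separate values of the pair are uncertain to that extent.

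Among the tested protein-coding neighbours of this cluster, Rundc3b, next to Abcb1a on the other strand, also rose (log2 fold change 0.78, edgeR adjusted p = 0.0263, at 0.386 to 0.445 CPM in WT). Slc25a40 and Dbf4 on that side and Crot, Tmem243 and Dmtf1 on the other did not pass the test, with log2 fold changes from -0.15 to 0.19. Over all 13 called members, 22 different genes outside the family were the nearest tested neighbours. Of these 5 were higher and 17 did not pass the threshold, where 21.0% of all tested genes passed it, 12.0% as higher.

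**Figure D4:**
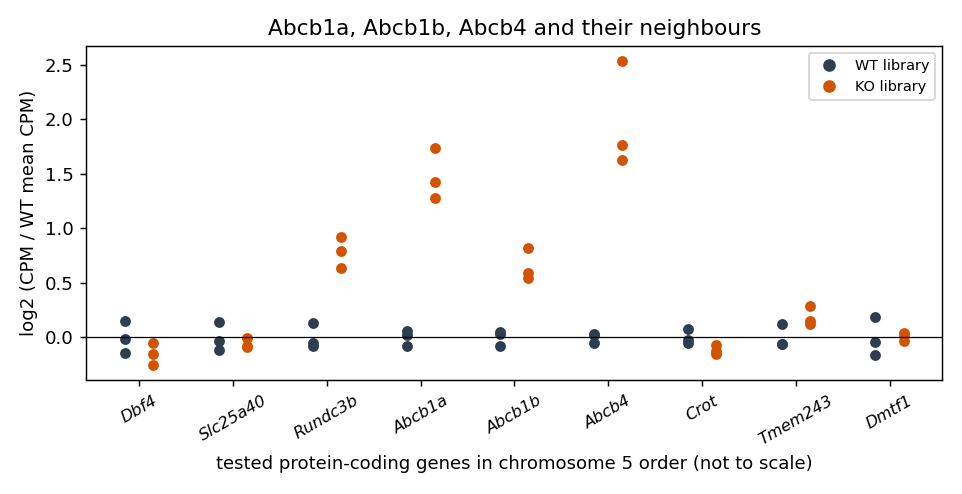
Log2 of each library's CPM over the WT mean (y axis) for the tested protein-coding genes around Abcb1a, Abcb1b and Abcb4 in chromosome order (x axis, not to scale); each point is a library. KO libraries lie above all WT libraries for Rundc3b, the 3 Abcb genes and Tmem243 (which did not pass the test), with the largest shift, 2.03 in the edgeR fit, at Abcb4.

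Exporters of cellular sterols and phospholipids rose in 4 of 5 tested genes of 7, where 12.0% of all tested genes were higher. This group too was drawn up with the values known. Abca1, which loads cholesterol and phospholipid onto apolipoprotein A-I (chromosome 4, 53030787 to 53159895), was at 2.11, 1.28 and 1.98 CPM in WT and 3.25, 3.04 and 3.07 CPM in KO. WT replicate 2 was the lowest library. Abcg1, which passes sterols to lipoprotein particles (chromosome 17, 31057675 to 31117988), also had its lowest library in WT replicate 2, at 3.36, 2.29 and 2.97 CPM in WT and 4.85, 4.98 and 5.20 CPM in KO. Both had a log2 fold change of 0.81 (SE 0.18 for Abca1 and 0.15 for Abcg1), with edgeR adjusted p-values of 0.0113 and 0.00407. Abca7, a phospholipid transporter related to Abca1, was more abundant, at 24.0, 26.4 and 28.1 CPM in WT and 33.5, 35.1 and 36.2 CPM in KO (log2 fold change 0.42 ± 0.09, edgeR adjusted p = 0.00688). With the Xist term these 3 genes kept log2 fold changes of 0.87, 0.76 and 0.36 but were not called, with adjusted p-values of 0.0786, 0.0656 and 0.123. Abcb4, described above, is the other gene of this group that rose. Abcg4 had 4 to 11 reads per WT library and 8 to 26 per KO library, and was not called (edgeR adjusted p = 0.116).

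A mitochondrial member of subfamily B fell. Abcb10, an inner membrane transporter needed for haem synthesis (chromosome 8, 123952459 to 123983122), was at 30.9, 31.4 and 36.7 CPM in WT and 25.0, 28.6 and 24.9 CPM in KO. It fell by 0.33 ± 0.10 on the log2 scale (edgeR adjusted p = 0.0311). This call was lost without WT replicate 2 (adjusted p = 0.0545), WT replicate 3 (0.0951), KO replicate 1 (0.145) or KO replicate 3 (0.116), with log2 fold changes from -0.37 to -0.24, and with the Xist term (0.136, log2 fold change -0.40). The antisense gene Gm45890 shares 10.3% of the exon bases of Abcb10 but was not listed in the count tables. Abcb8, another mitochondrial member, had a log2 fold change of -0.23 ± 0.13, with edgeR adjusted p = 0.243.

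Other organelles showed 1 change. Abcb9, a lysosomal peptide transporter related to Tap1 and Tap2 (chromosome 5, 124061530 to 124095798), was at 0.20, 0.36 and 0.30 CPM in WT and 1.07, 0.58 and 0.85 CPM in KO. It rose 2.87-fold (log2 fold change 1.52 ± 0.30, edgeR adjusted p = 0.00526) on 17 to 38 reads per WT library. Abcd3, a peroxisomal half-transporter of branched-chain acyl-CoA and the most abundant of subfamily D, averaged 96.1 ± 4.91 CPM in WT against 89.6 ± 4.12 CPM in KO (log2 fold change -0.10 ± 0.07, edgeR adjusted p = 0.334). Abcd4, a lysosomal cobalamin transporter, had a log2 fold change of 0.10 ± 0.11 (edgeR adjusted p = 0.517).

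Abcc8, the sulfonylurea receptor that forms ATP-sensitive potassium channels with the pore protein Kcnj11 (chromosome 7, 46104523 to 46180033), rose at a low level. It was at 0.185, 0.122 and 0.321 CPM in WT and 0.862, 0.882 and 1.07 CPM in KO, with no overlap, on 13 to 31 reads per WT library. The log2 fold change was 2.16 ± 0.31 (edgeR adjusted p = 0.000905). Its neighbour Kcnj11 went from 0.432 ± 0.102 to 1.04 ± 0.158 CPM (log2 fold change 1.25 ± 0.24, edgeR adjusted p = 0.00432). Abcc9, the other sulfonylurea receptor, had 4 to 11 reads per WT library and 9 to 16 per KO library and was not called (edgeR adjusted p = 0.277).

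The soluble members were abundant and close between groups. Abce1, which splits ribosomes after termination, was at 449, 397 and 356 CPM in WT and 416, 395 and 376 CPM in KO (log2 fold change -0.02 ± 0.09, edgeR adjusted p = 0.916). Abcf1, Abcf2 and Abcf3, which act in translation, had log2 fold changes of 0.10 ± 0.07, -0.08 ± 0.07 and 0.04 ± 0.07. Their groups overlapped. Abcf2, the highest of subfamily F per exon kilobase, averaged 196 ± 4.38 CPM in WT against 186 ± 6.11 CPM in KO, with edgeR adjusted p = 0.415.

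The rest of subfamily A did not pass the test. Abca3 came closest: it was at 100.0, 103.5 and 106.0 CPM in WT and 120.5, 122.6 and 112.8 CPM in KO, groups that did not overlap (log2 fold change 0.20 ± 0.07, edgeR adjusted p = 0.0566). It was called when a mean of 1 CPM was required (adjusted p = 0.0257) and without WT replicate 3 (0.0356). Abca4, the retinoid transporter best known from photoreceptors, had a log2 fold change of -0.27 ± 0.13 and no overlap between the groups, with edgeR adjusted p = 0.164. Abca17 had 1 to 11 reads per WT library and 12 to 18 per KO library (log2 fold change 1.56 ± 0.56, edgeR adjusted p = 0.0694). It was called by limma-voom, with the filter at a total count of 1, and without WT replicate 3. Abca2, Abca5, Abca8b, Abca9, Abca12 and Abca13 had overlapping groups.

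The 13 members below the filter had between 1 and 42 reads in all libraries together. They were Abca6, Abca8a, Abca14, Abca15, Abca16, Abcb6, Abcb11, Abcc6, Abcc12, Abcd2, Abcg3, Abcg5 and Abcg8. Abcg5 and Abcg8, the sterol half-transporters of liver and intestine, had 1 read each, and so did Abcc6. Abcb6 had 8, 9 and 13 reads in WT and 0, 8 and 4 in KO. Of its exon bases, 55.2% are also annotated to the gene Gm29253 on the same strand, which was listed at 0 in every library. Counts of Abcb6 are therefore uncertain.

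Of 3 ABC genes with other kinds of symbols, 1 passed the test, where 21.0% of all tested genes did. Cftr, the chloride channel that belongs to subfamily C, was at 19.0, 16.5 and 14.8 CPM in WT and 7.91, 9.50 and 7.53 CPM in KO. It fell by 1.01 ± 0.12 on the log2 scale (edgeR adjusted p = 0.000379), a larger fall than that of Abcc4 or Abcb10. The antigen peptide transporter genes Tap1 and Tap2 had log2 fold changes of 0.24 ± 0.16 and 0.41 ± 0.17 and were not called (edgeR adjusted p = 0.314 and 0.104).

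Genes that regulate or partner the family were read from lists. Among nuclear receptors and other regulators of ABC genes, 2 of 18 tested genes passed the test, both higher, where 12.0% of all tested genes were higher. These were Ppard, a fatty acid receptor (20.8 ± 4.02 to 33.3 ± 2.55 CPM, edgeR adjusted p = 0.0047), and the liver and kidney factor Hnf4a. Hnf4a was at 0.347, 0.217 and 0.238 CPM in WT and 0.567, 0.914 and 2.10 CPM in KO (log2 fold change 2.17 ± 0.44, edgeR adjusted p = 0.00615). With the Xist term its log2 fold change was 1.09 and the call was lost (adjusted p = 0.213). The liver X receptor genes Nr1h3 and Nr1h2 had log2 fold changes of 0.41 ± 0.27 and 0.25 ± 0.14, and Nfe2l2 (NRF2) one of -0.01 ± 0.08. None of these 3 was called, with edgeR adjusted p-values of 0.284, 0.225 and 0.937. The receptors of foreign compounds, Nr1i2 and Nr1i3, were below the filter.

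Sterol acceptors and genes that liver X receptors are known to regulate included 4 of 11 tested genes that passed, all higher, with a median log2 fold change of 0.09. This was 36.4% called, where 21.0% of all tested genes were. Lpcat3, a phospholipid acyltransferase, went from 94.1 ± 3.41 to 134.9 ± 5.20 CPM (edgeR adjusted p = 0.000581). The lysosomal cholesterol exporters Npc1 and Npc2 had log2 fold changes of 0.34 ± 0.07 and 0.30 ± 0.08, and the apolipoprotein gene Apoe one of 0.67 ± 0.18. With the Xist term Npc1, Npc2 and Apoe were not called (adjusted p = 0.0658, 0.112 and 0.116), while their log2 fold changes were 0.39, 0.34 and 0.74. The Npc2 call was also lost without WT replicate 2 (adjusted p = 0.0596), KO replicate 1 (0.0761) or KO replicate 2 (0.0675), and the Apoe call without KO replicate 1 (0.0763) or KO replicate 3 (0.0977).

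Among protein partners of ABC members, 3 of 21 tested genes were higher and 2 lower. This was 23.8% called, where 21.0% of all tested genes were. Besides Kcnj11, the scaffold gene Slc9a3r1 (NHERF1) and the membrane linker gene Ezr (ezrin), which tether apical transporters, rose. Ezr went from 584 ± 49.9 to 861 ± 50.6 CPM and Slc9a3r1 from 144 ± 19.3 to 217 ± 10.3 CPM, with edgeR adjusted p-values of 0.00158 and 0.00201. Tmem14c, a mitochondrial porphyrin carrier, and Mmadhc, a cobalamin trafficking gene, had log2 fold changes of -0.33 ± 0.09 and -0.44 ± 0.09 (edgeR adjusted p = 0.0311 and 0.0076). Both calls were lost with the Xist term, where the log2 fold changes were -0.36 and -0.41 (adjusted p = 0.175 and 0.128). Tmem14c was also not called without WT replicate 3 (adjusted p = 0.0866) or without any of the KO libraries (0.0541 to 0.139). Of the uptake and extrusion carriers that work with ABC pumps in renal drug secretion, 4 of 10 were tested. Among these 4 genes 1 passed, or 25%, where 21.0% of all tested genes did. Slc47a1, the apical organic cation exporter, rose from 1.08 ± 0.337 to 2.32 ± 0.407 CPM (edgeR adjusted p = 0.00646). That call was lost with the Xist term, where the log2 fold change was 0.79 with adjusted p = 0.143. The organic anion uptake genes Slc22a6 and Slc22a8 were below the filter.

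Marker genes of cell types that express ABC genes also differed between the groups. The counts below stand beside 12.0% higher and 9.08% lower over all tested genes. In a bulk sample, fewer cells of a type and less RNA per cell cannot be told apart. Of 15 proximal tubule markers 9 were tested, 6 rose and 1 fell. Their summed level was 207 to 230 CPM in WT and 227 to 259 CPM in KO, ranges that overlapped. The phosphate carrier Slc34a1 had no read in WT, and Slc5a2, Slc5a12, Miox, Fbp1 and Slc22a6 were also below the filter. For endothelium, where Abcb1a and Abcg2 are known to be made, 6 of 10 markers rose and the sum was 20.7 to 22.0 CPM in WT and 29.7 to 40.2 CPM in KO. The order of the KO libraries was 40.2, 33.0 and 29.7 CPM. For macrophages and leukocytes, which are known for Abca1 and Abcg1, 3 of 9 tested markers rose and the sum was 37.7 to 44.7 CPM in WT and 48.6 to 56.4 CPM in KO. The part of these cells in the ABC results was not tested. Markers of podocytes (598 to 680 CPM in WT, 691 to 724 CPM in KO; 5 of 10 rose) and of the loop, distal tubule and collecting duct (792 to 824 CPM, 917 to 1031 CPM; 6 of 12 tested rose) were higher as well. Fibroblast and pericyte sums overlapped, at 65.0 to 88.9 CPM in WT and 74.5 to 131 CPM in KO, with 6 of 8 tested markers higher. Single abundant markers carried much of several sums. Without Acta2 (smooth muscle actin), the fibroblast and pericyte sums were 21.7 to 33.3 CPM in WT and 37.5 to 57.8 CPM in KO and no longer overlapped. Without Slc4a4, which fell and made up 57% of the WT sum, the proximal sums were 91.7 to 97.6 CPM and 133 to 168 CPM. Without Nes, 83.5% of the WT podocyte sum, those sums were 106 to 108 CPM and 172 to 207 CPM. Cdh16 made up 90.6% of the WT sum for the loop, distal tubule and collecting duct. Without it those sums were 69.3 to 82.6 CPM in WT and 95.7 to 105 CPM in KO. Without Lyz2 the macrophage and leukocyte sums did overlap, at 22.7 to 26.6 CPM and 26.2 to 28.5 CPM. The sums without their most abundant marker were chosen after seeing the data.

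Calls of 8 members held in each of the settings that tested them: Abcb1a, Abcb1b, Abcb4, Abcb9, Abcc2, Abcc3, Abcc8 and Abcg2. In the fit with the Xist term, 8 ABC genes were called, all higher, and 6.62% of all tested genes were. In that fit the genotype estimate rests on KO replicate 1 against WT. The calls of Abca1, Abca7, Abcg1, Abcc4 and Abcb10 were lost in it.

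**Figure D5:**
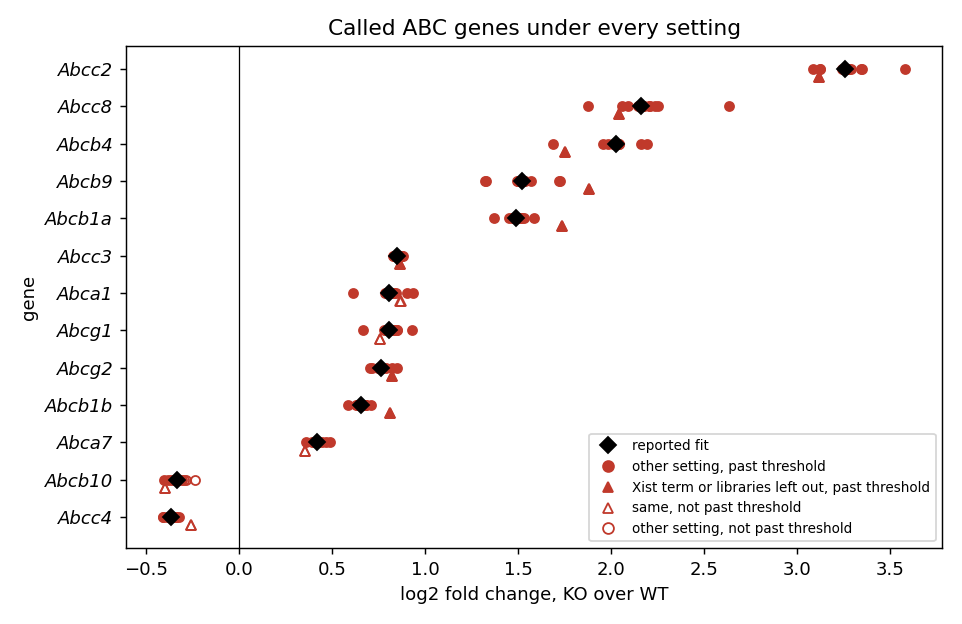
Log2 fold change of KO over WT (x axis) of the 13 called ABC genes (y axis) in the reported edgeR fit (diamonds) and under the alternatives (circles, or triangles for the fit with an Xist term and the fit without the 2 Xist-positive libraries); open symbols did not pass the threshold. No gene crosses 0, and open triangles are seen for Abca1, Abca7, Abcg1, Abcb10 and Abcc4.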

How the data were processed

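Transcript abundance was measured by RNA sequencing in 6 cultures, 3 per genotype, grouped by sample title. The authors deposited whole-number read counts per Ensembl gene, without normalization. Trimmomatic 0.38, STAR 2.7.1a, HTSeq 0.11.2 and mm10 are named per the submitters' processing notes. The sources used here give no annotation release, strand setting or treatment of multi-mapped reads, which affect paralogs and overlapping genes.

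Symbols, positions and exon lengths came from GENCODE M21 (48144 of 48526 genes matched). The test was edgeR 4.0.16 under R 4.3.3 (filterByExpr, TMM factors, quasi-likelihood test of genotype, Benjamini-Hochberg over 17571 genes, threshold 0.05). SE is derived from the log2 fold change and F as |log2 fold change| / sqrt(F). Read counts are given beside genes with few reads, where counting error is largest. Alternatives were DESeq2 1.42.0, limma-voom (limma 3.58.1), other scalings and filters, a replicate block, each library left out and an Xist term. Members, lists and alternatives were chosen with earlier results of these data known. Named were all called members, Abcc4, Abcb1a, Abcb1b, the most abundant member per subfamily, and up to 6 called genes per list, or the 2 most abundant where none was called; others belong to small counts or were chosen after their values were seen. No replicate pair was a copy (chi-square per degree of freedom of 25.04 to 84.14). Values of 2 members are not reported here or drawn. Figures used matplotlib 3.10.9.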

Additional observations from a re-analysis of the deposited data

How the results depend on the processing

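The number of called ABC genes, 13 in the reported fit, was 11 to 14 under another scaling, another filter, DESeq2, limma-voom and the replicate block. It was 12 to 14 when single libraries were left out. Of all tested genes, 9.65% (without KO replicate 1) to 22% (without WT replicate 1) were then called, against 21.0% in the reported fit. In these fits ABC genes higher in KO numbered 11 to 13 and those lower in KO 1 to 3. Abcb10 was lost without WT replicate 2, WT replicate 3, KO replicate 1 or KO replicate 3. With the term for libraries with Xist above 10 CPM, and without those 2 libraries (an alternative chosen after seeing the data, in which the lone KO library is assumed to vary like WT), 8 genes were called by edgeR and 0 of them were lower. At an unadjusted p below 0.05, 1 gene was lower in each of those fits, and DESeq2 and limma-voom without the term each called 2 lower. The cause was not tested. Those fits called 6.62% and 5.08% of all tested genes. Requiring a mean of 1 CPM removed Abcb4, Abcb9 and Abcc8 from the test. The difference in the log2 Abcb1a to Abcb1b ratio was 0.77 to 0.90 without single libraries and 0.82 with a prior count of 2. No called member changed direction under these alternatives.

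For WT and KO libraries with equal replicate numbers, the correlations of deviations from the group means were 0.042, -0.146 and 0.032. For unequal numbers they were -0.112 to 0.1. With 3 libraries per group, such values cannot tell whether equal numbers share a litter or day. With the replicate number as a block, 14 ABC genes were called (12 higher, 2 lower), Abca17 being the addition. Other settings also added Abca17 (limma-voom, a total count of 1, without WT replicate 3), Abca3 (a mean of 1 CPM, without WT replicate 3), Abcb8 (without WT replicate 1) and Abcg4 (without KO replicate 2). Depth limits Abcb4, Abcb9, Abcc2 and Abcc8, with fewer than 40 reads in each WT library.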
